A study of Mus musculus with 12 samples.

Results

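The genes described here are 10 chaperones and chaperone regulators of the cytosol and nucleus: Hspa4, Hspa4l, Hsph1, Hspa8, Hspa1b, Hsp90aa1, Hsp90ab1, Dnajb1, Dnaja1 and Hsf1. They were picked by symbol out of 30994 counted genes, and all 10 were found through a GRCm38 annotation. Hspa4 was taken into the set because earlier results of the same counts showed that it varied between groups, so its values are given as a description and without a test. The other members were tested with all genes.

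The cells were SIM-A9, a microglial line from the C57BL/6 mouse strain, and microglia are macrophages that reside in the brain. All cells first received 10 µM polymyxin B, which binds bacterial endotoxin, for 1 h, and all additions were made in medium without serum. The 4 groups of 3 libraries then received 10 µM C13 and TDP-43 aggregates, C13 and sham aggregates, the solvent DMSO and TDP-43 aggregates, or DMSO and sham aggregates. C13 is described in the series title as an inhibitor of the kinase MOK, and it or DMSO was given for 1 h before 5 µg/mL of aggregates. TDP-43 is an RNA-binding protein that aggregates in motor neuron disease. The nucleoside 4-thiouridine was added at 100 µM after 2.5 h of aggregates and stayed for 90 min, so that the cells had 4 h with aggregates in all. Reads that carry its mark were counted as nascent RNA, and all reads of the 3′ ends of transcripts as total RNA. The groups are called C13 with TDP-43, C13 with sham, DMSO with TDP-43 and DMSO with sham below. The labels name the samples biological replicates of 1 cell line and state no separate cultures, so p-values measure the spread between these samples, which may be technical.

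HSP70 proteins bind unfolded stretches of other proteins and release them in a cycle driven by ATP. J-domain proteins such as those made from Dnaja1 and Dnajb1 bring substrates to HSP70 and speed its ATP hydrolysis, while HSP110 proteins, made from Hspa4, Hspa4l and Hsph1, exchange its nucleotide. HSP70, J-domain and HSP110 proteins together can pull apart protein aggregates in animal cells, HSP90 matures kinases and receptors, and HSF1 is the transcription factor that induces many chaperone genes on heat or protein damage.

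HSF1 binds repeats of a 5-base unit, and members of the set differ in whether a pair of such units lies just before a RefSeq start. The following stretches are shown because Hspa4, the gene that varied, held neither GAANNTTC nor TTCNNGAA in the 250 bases before its start, while the inducible gene Hspa1b, Hsph1 before both of its 2 starts in the table and Dnaja1 before 1 of its 3 starts each held 1 of them. They are RefSeq sequence of build GRCm38.p6, 5′ to 3′ on the gene's strand, with the motif in capitals, at chr11:53300480-53300729 (minus strand) for Hspa4, chr17:34959239-34959488 (minus strand) for Hspa1b, chr5:149636351-149636380 (minus strand) for Hsph1 and chr4:40722333-40722362 (plus strand) for Dnaja1.
Hspa4: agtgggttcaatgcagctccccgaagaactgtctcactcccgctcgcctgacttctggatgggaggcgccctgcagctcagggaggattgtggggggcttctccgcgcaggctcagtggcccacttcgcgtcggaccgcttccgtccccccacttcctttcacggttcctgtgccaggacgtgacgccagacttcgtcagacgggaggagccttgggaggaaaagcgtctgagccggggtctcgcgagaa
Hspa1b: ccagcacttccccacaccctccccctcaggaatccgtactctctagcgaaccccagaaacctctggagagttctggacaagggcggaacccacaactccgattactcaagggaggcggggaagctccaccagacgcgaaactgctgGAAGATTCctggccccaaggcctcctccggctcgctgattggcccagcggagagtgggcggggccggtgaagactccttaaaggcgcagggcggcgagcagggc
Hsph1: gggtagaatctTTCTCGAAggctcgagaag
Dnaja1: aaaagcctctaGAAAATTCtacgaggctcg
The motif of Hspa1b began 104 bases before the start, that of Hsph1 54 bases before one start and 33 before the other, and that of Dnaja1 124 bases before one start. The windows of the other 2 starts of Dnaja1 held no match. In the GRCm38 annotation used for the gene positions below, Dnaja1 began at chr4:40722150 and Hsph1 at chr5:149636376. By those starts the motifs of Dnaja1 and Hsph1 lay inside the genes. Each motif is its own reverse complement, so both strands were searched at once. Of the 32851 windows of 250 bases in the RefSeq table, 12.8% held 1 of these motifs or more, so that a match was common. A run of 3 units, GAANNTTC followed by NN and GAA or TTCNNGAA followed by NN and TTC, was in 0.466% of the windows and in none of the members' windows. Hspa4l and Dnajb1 held no match, and Hspa8, Hsp90aa1, Hsp90ab1 and Hsf1 were not matched in the table. The windows of Hspa1b and its near-identical copy Hspa1a had the same base at 247 of 250 positions.

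The libraries held between 17436397 and 41779882 total reads and between 552042 and 2722812 nascent reads, of which 11827 genes in total RNA and 7078 in nascent RNA were tested. Levels are given as CPM, the counts scaled by TMM to a common library size, and those of markers and of the smallest detectable counts use plain library totals. On the first principal component of nascent RNA, replicate 3 of C13 with sham (113.6) and replicate 3 of DMSO with TDP-43 (125.1) stood apart from the others (-41.7 to 17.2), and results that rest on them are given with and without them. Replicate 2 of C13 with sham stood apart on the third component of nascent RNA, at 145.3 against -26.6 to 2.01, and at the end of the first component of total RNA, at -57.4 against -26.8 to 44.2, so values without it are given as well. Of 10 markers of microglia and macrophages, 7 were detected in all 12 libraries, among them Csf1r at 142 to 281 CPM and Cd68 at 148 to 389.6 CPM. Of the 3 others, C1qa and Tmem119 stayed at 1.46 CPM or less and P2ry12 was at 0 in 3 libraries. Summed markers of astrocytes, neurons, endothelial cells and fibroblasts reached at most 1.58 CPM in any library, and of the oligodendrocyte markers Mog was at 0 in all 12 while Mbp lay at 4.31 to 45.6 CPM. In these bulk samples, fewer cells of a type and less RNA per cell cannot be told apart.

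The HSP110 gene Hspa4 (ENSMUSG00000020361, chr11:53259814-53300457, minus strand, GRCm38) had the widest spread between groups in the set in total RNA. Its levels were 187, 241 and 297 CPM in C13 with TDP-43. They were 139, 104 and 111 CPM in C13 with sham. In DMSO with TDP-43 they were 179.8, 112 and 123 CPM, and in DMSO with sham 324, 158 and 404 CPM. The groups therefore ran in a crossed order, with C13 with TDP-43 and DMSO with sham high and the other 2 groups low. DMSO with sham had the highest mean, 295 ± 125 CPM, followed by C13 with TDP-43 at 242 ± 54.6 CPM, and these groups overlapped. DMSO with TDP-43 came next at 138 ± 36.4 CPM and C13 with sham last at 118 ± 18.3 CPM (SD, n = 3 each), and these overlapped as well.

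With C13, Hspa4 was higher with TDP-43 aggregates than with sham by 1.04 on the log2 scale in total RNA, and the libraries of the 2 groups did not overlap. With DMSO the log2 difference of TDP-43 aggregates from sham was -1.10, but here replicate 1 of DMSO with TDP-43 lay above replicate 2 of DMSO with sham. C13 against DMSO gave a log2 difference of 0.81 with TDP-43 aggregates and of -1.32 with sham, without overlap in either. These comparisons share groups, so they are not separate observations. The difference between the C13 difference with aggregates and that with sham was 2.13 on the log2 scale. When any 1 library was left out, it ranged between 1.85 and 2.43, and without both libraries that stood apart on the first component of nascent RNA it was 2.01. Without replicate 2 of C13 with sham it was 2.05. In the other comparisons leaving out 1 library kept the sign in total RNA, with ranges of 0.87 to 1.19 for aggregates with C13, -1.40 to -0.80 for aggregates with DMSO, 0.64 to 1.04 for C13 with aggregates and -1.63 to -1.03 for C13 with sham.

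By group mean, the share of mitochondrial ribosomal RNA ran in the reverse of the order of total Hspa4. Mitochondrial ribosomal RNA made up 1.29% to 1.54% of total reads in C13 with TDP-43 and 1.80% to 3.70% in C13 with sham. It made up 1.71% to 2.52% in DMSO with TDP-43 and 1.17% to 1.49% in DMSO with sham. The 2 groups with high Hspa4 thus had the lower shares, without overlap with the other 2 groups, and the part of this in the levels of Hspa4 was not tested.

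**Figure D1:**
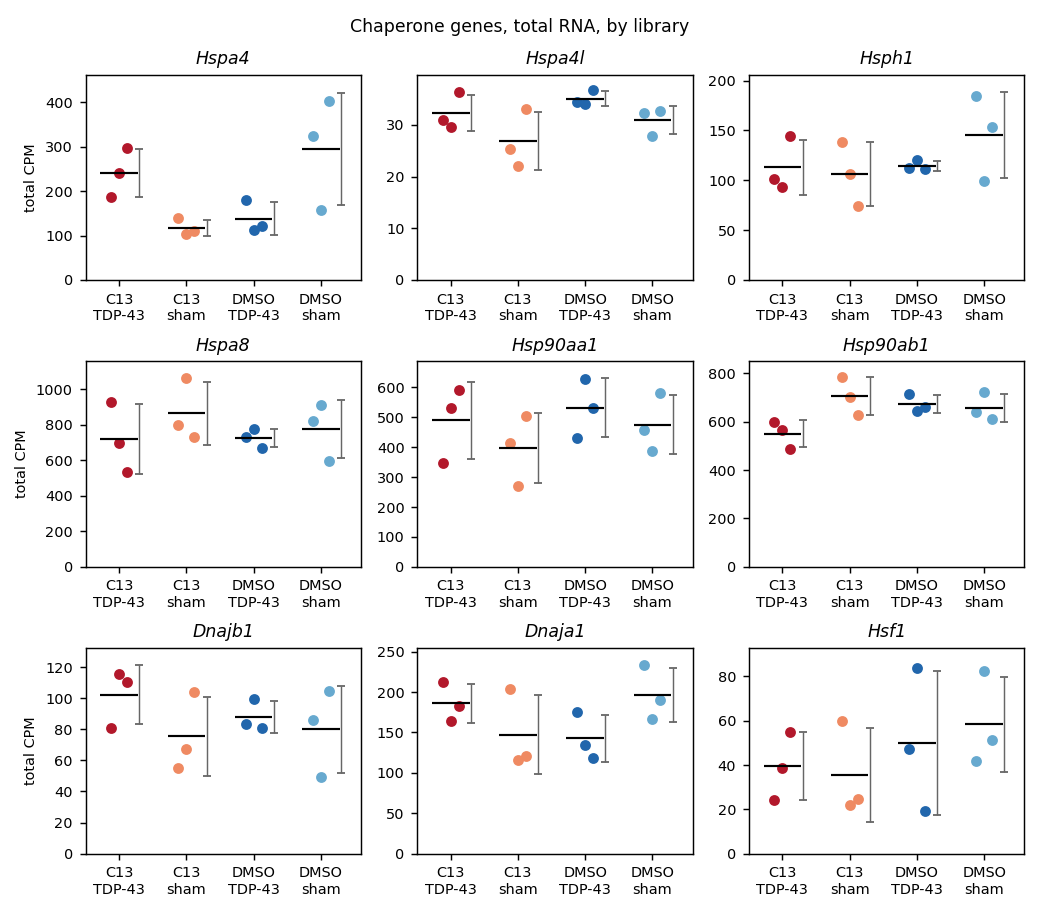
Level in total RNA (CPM, linear axis from 0) of the 9 members with reads, 1 panel a gene, with 1 point a library, a line at the group mean and a bar of 1 SD (n = 3). Hspa4 is high in C13 with TDP-43 (187 to 297 CPM) and in DMSO with sham (158 to 404 CPM), while Hspa4l and Hsp90ab1 vary little.

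In nascent RNA the crossed order of Hspa4 was seen in part. It had 114, 143 and 219 CPM in C13 with TDP-43 and 69.3, 145 and 188 CPM in C13 with sham. DMSO with TDP-43 had 117, 98.8 and 112 CPM, and DMSO with sham had 172, 138 and 365 CPM. Only the 2 DMSO groups did not overlap. The log2 differences were -1.04 for aggregates with DMSO, 0.24 for aggregates with C13, 0.54 for C13 with aggregates and -0.74 for C13 with sham. The one for aggregates with DMSO was -0.50 without replicate 3 of DMSO with sham. The one for aggregates with C13 was -0.07 without replicate 1 of C13 with sham, -0.06 without replicate 3 of C13 with TDP-43, 0.37 without replicate 2 of C13 with sham and 0.62 without both libraries that stood apart. For C13 with aggregates it was 0.235 without replicate 3 of C13 with TDP-43. For C13 with sham it was -0.21 without replicate 3 of DMSO with sham, -0.43 without replicate 1 of C13 with sham and -1.13 without both libraries that stood apart. The nascent counterpart of the value of 2.13 was 1.28, with 0.74 (without replicate 3 of DMSO with sham) to 1.72 when 1 library was left out.

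Hspa4l (ENSMUSG00000025757, chr3:40744495-40796103, plus strand) is the closest paralog of Hspa4 in the set. Its total RNA levels were 30.9, 29.6 and 36.3 CPM in C13 with TDP-43 and 25.4, 22.1 and 33.1 CPM in C13 with sham. It had 34.3, 34.1 and 36.7 CPM in DMSO with TDP-43 and 32.3, 27.9 and 32.8 CPM in DMSO with sham. All 12 libraries thus lay within a factor of 1.66, and the SD of its log2 CPM was below that of all but 3.30% of 3486 tested genes of similar level. The 2 DMSO groups did not overlap, by a log2 difference of 0.18 ± 0.24 (SE) for aggregates against sham, with an adjusted p of 0.999 (edgeR's quasi-likelihood test). Nascent Hspa4l rested on 193 reads over 12 libraries and was 0 in replicate 2 of C13 with TDP-43.

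Hsph1 (ENSMUSG00000029657, chr5:149614287-149636376, minus strand) encodes HSP105, the HSP110 protein induced by heat. In total RNA its libraries held 101, 92.8 and 145 CPM in C13 with TDP-43 and 138, 107 and 74.0 CPM in C13 with sham. It had 112, 120.0 and 111 CPM in DMSO with TDP-43 and 185, 99.4 and 153 CPM in DMSO with sham. Every pair of groups that differed in 1 treatment overlapped. Its interaction of C13 and aggregates, that is the C13 difference with aggregates minus that with sham, was 0.44 ± 0.38 (SE, log2), with an adjusted p of 0.855 (edgeR), and its difference from that of Hspa4 was not tested. In nascent RNA its libraries ran from 1.62 CPM in replicate 2 of C13 with TDP-43 to 298 CPM in replicate 3 of C13 with sham, 1 of the libraries that stood apart.

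Among the HSP70 genes, Hspa8 (ENSMUSG00000015656, chr9:40800984-40810087, plus strand), the constitutive HSP70 of the cytosol, was abundant in every library. It had 929.7, 699.6 and 536 CPM in C13 with TDP-43 and 797, 1064 and 731 CPM in C13 with sham in total RNA. It had 733, 775 and 670.3 CPM in DMSO with TDP-43 and 824, 910.1 and 597 CPM in DMSO with sham. These groups overlapped in every comparison. Its count is uncertain, since 67.3% of the windows of 50 bases in the last 300 bases of its transcript occur in transcripts of 10 other genes, and none did for the other members. It also contains the small nucleolar RNA genes Snord14c, Snord14d and Snord14e on its strand.

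The inducible HSP70 gene Hspa1b (ENSMUSG00000090877, chr17:34956436-34959238, minus strand) had 0 reads in all 12 libraries of either table, and so had its copy Hspa1a. A count of 0 allows up to 3 reads, which is 0.0718 to 0.172 CPM in total RNA and 1.10 to 5.43 CPM in nascent RNA, and covers counting error only. Of the windows of 50 bases in the Hspa1b transcript, 62.3% occur in Hspa1a, but none in its last 300 bases, where reads of 3′ ends fall. How the authors treated reads that match several genes is not given in the sources used here. Hspa1b was therefore in no test, and no comparison of it was possible. Among other heat-inducible genes, Cryab and Hspb8 had 0 reads as well, Hspb1 had 28 reads over the 12 total libraries, and Dnajb1, Hsph1 and Bag3 had reads in every total library.

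Both cytosolic HSP90 genes had high counts. Hsp90aa1 (ENSMUSG00000021270, chr12:110690605-110702728, minus strand) encodes the stress-inducible form. In total RNA it had 346, 532 and 592 CPM in C13 with TDP-43 and 415, 272 and 504 CPM in C13 with sham. It had 433, 630.0 and 533 CPM in DMSO with TDP-43 and 459, 387 and 582 CPM in DMSO with sham. Its groups overlapped in each comparison.

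Hsp90ab1 (ENSMUSG00000023944, chr17:45567775-45573271, minus strand) encodes the constitutive form. Its total RNA levels were 598, 567 and 488 CPM in C13 with TDP-43 and 787, 702 and 629 CPM in C13 with sham. It had 715, 646 and 662 CPM in DMSO with TDP-43 and 639, 722 and 611 CPM in DMSO with sham. All 3 libraries of C13 with TDP-43 lay below every library of the other 3 groups. The log2 difference was -0.36 ± 0.17 (SE) for aggregates against sham with C13, with an unadjusted p of 0.05002 and an adjusted p of 0.566, and -0.29 ± 0.17 for C13 against DMSO with aggregates, with an adjusted p of 0.856 (edgeR). Neither passed the threshold of 0.05. Without both libraries that stood apart they were -0.43 and -0.29. In nascent RNA the same group also had the lowest mean, 248 ± 56.0 CPM, against 366 ± 127 CPM in C13 with sham and 429 ± 183 CPM in DMSO with TDP-43 (SD, n = 3 each), but its libraries overlapped with theirs.

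Of the J-domain genes, Dnajb1 (ENSMUSG00000005483, chr8:83608193-83612653, plus strand) encodes HSP40, which works with HSP70 and HSP110 in taking aggregates apart. In total RNA its libraries held 80.5, 116 and 110.1 CPM in C13 with TDP-43 and 55.0, 67.4 and 104 CPM in C13 with sham. It had 83.2, 99.5 and 81.0 CPM in DMSO with TDP-43 and 85.7, 49.3 and 105 CPM in DMSO with sham. The log2 difference between aggregates and sham was 0.44 ± 0.29 (SE) with C13, and every pair of groups overlapped. All 24 counts of Dnajb1, and all 24 of Hspa8, were multiples of 2, and what made them so is not given in the sources used here.

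Dnaja1 (ENSMUSG00000028410, chr4:40722150-40737149, plus strand), another HSP40 that serves HSP70, came closest to the crossed order of Hspa4. In total RNA it had 212, 164 and 182 CPM in C13 with TDP-43 and 203, 116 and 121 CPM in C13 with sham. It had 175, 135 and 119 CPM in DMSO with TDP-43 and 233, 167 and 190.4 CPM in DMSO with sham. Group means were thus higher in C13 with TDP-43 and DMSO with sham, but the groups overlapped. The interaction of C13 and aggregates was 0.80 ± 0.34 (SE, log2), with an unadjusted p of 0.0333 and an adjusted p of 0.564 (edgeR), 0.66 without replicate 2 of C13 with sham and 0.57 without both libraries that stood apart. Among the 8 tested members it was the only value with an unadjusted p under 0.05 in the 7 comparisons of either table. The gene overlaps Mir207 on its strand and Smu1 and Gm6297 on the other, and whether the authors' counting used strand is not given in the sources used here.

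In nascent RNA Dnaja1 varied far more. It had 161, 160.3 and 246 CPM in C13 with TDP-43, against 125, 7.08 and 7.94 CPM in C13 with sham. It had 325, 15.7 and 247 CPM in DMSO with TDP-43, against 41.2, 149 and 271 CPM in DMSO with sham. Libraries of 1 group lay far apart in each group but C13 with TDP-43. The groups with C13 did not overlap, with a log2 difference of 2.01 ± 1.11 (SE) and an adjusted p of 0.676 (edgeR). It was 1.54 without both libraries that stood apart, 1.50 without replicate 2 of C13 with sham and 4.64 without replicate 1 of that group. For C13 with sham the last value rests on the libraries with 4 reads alone.

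Hsf1 (ENSMUSG00000022556, chr15:76477422-76501913, plus strand) spread as widely as Hspa4, but within groups. Its total RNA levels were 24.3, 38.9 and 55.1 CPM in C13 with TDP-43 and 59.8, 21.9 and 24.7 CPM in C13 with sham. It had 47.1, 84.0 and 19.2 CPM in DMSO with TDP-43 and 41.7, 82.5 and 51.1 CPM in DMSO with sham. The lowest and the highest library belonged to the same group, DMSO with TDP-43, and differed by a factor of 4.38. That lowest library, replicate 3, was 1 of those that stood apart, and without it the lowest was 21.9 CPM in replicate 2 of C13 with sham. In nascent RNA it had 0, 26.5 and 9.92 CPM in C13 with sham, from 0, 15 and 5 reads. DMSO with sham had 28.9, 101 and 106 CPM, from 35, 300 and 115 reads. These groups did not overlap, with a log2 difference of -2.69 ± 1.44 (SE) and an adjusted p of 0.746 (edgeR). It was -2.64 without both libraries that stood apart and -4.09 without replicate 2 of C13 with sham, which leaves 0 and 5 reads there. In total RNA the same comparison gave -0.72 ± 0.50. Of its 24 counts, 20 were divisible by 5, which was noticed after the values were seen.

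**Figure D2:**
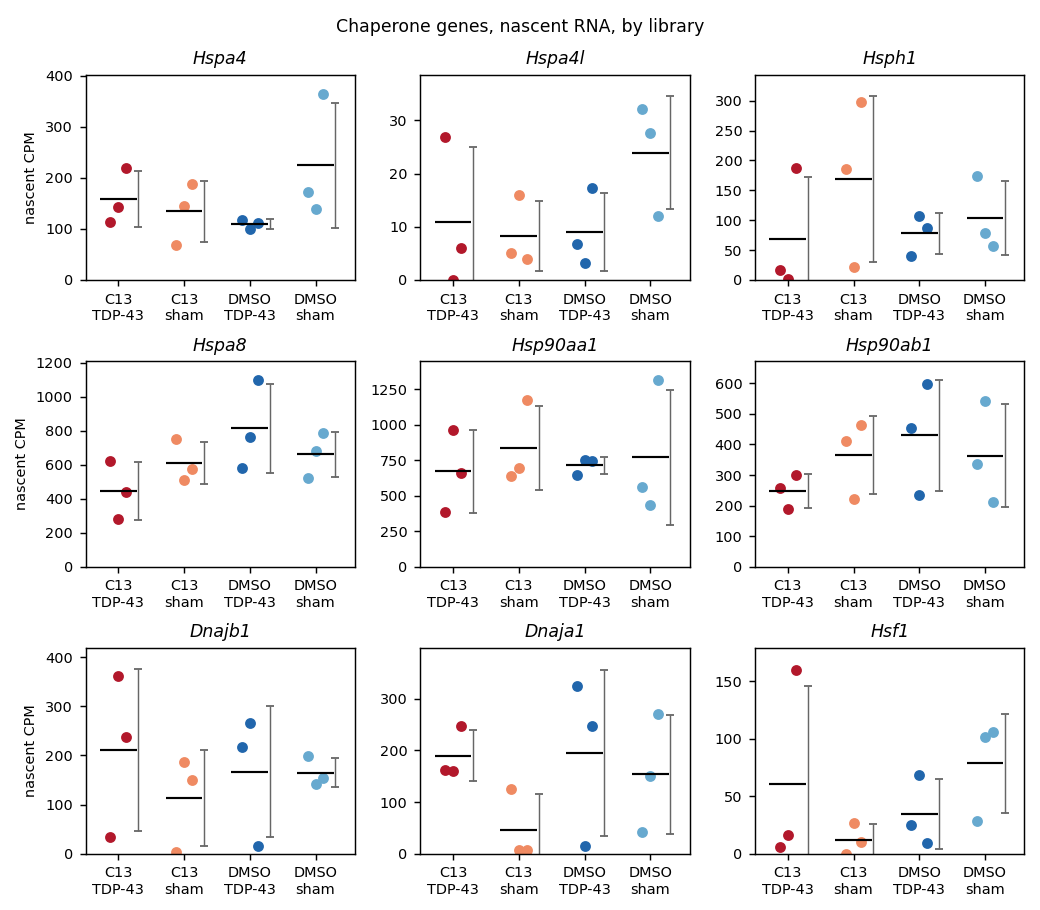
Level in nascent RNA (CPM, linear axis from 0) of the same 9 members, drawn as for total RNA, with SD bars that run below 0 left off at the axis. Libraries of 1 group differ many-fold for Hsph1, Dnajb1, Dnaja1 and Hsf1, as with Dnaja1 at 7.08 and 125 CPM in C13 with sham.

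Across the 8 tested members other than Hspa4, edgeR called 0 in each of the 7 comparisons in total RNA, where percent called over all 11827 genes was 0 in every comparison. It also called 0 of these 8 in each of the 7 comparisons in nascent RNA. There the percent called over all 7078 genes was 0 in 6 comparisons and 0.0141 for aggregates against sham averaged over C13 and DMSO. DESeq2 called 0 of the 8 in every comparison as well, though over all genes it called 8 to 108 genes in total RNA and 7 to 72 in nascent RNA. At an unadjusted p under 0.05 stood 483 to 1045 of all genes in total RNA and 226 to 598 in nascent RNA, depending on the comparison. Adjusted p-values of the members ran between 0.564 and 1.0 in total RNA and between 0.676 and 1.000 in nascent RNA.

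Members without overlap between groups were about as many as the background gives. In total RNA 1 of 8 did not overlap for aggregates with DMSO (Hspa4l), against 11.9% of all genes tested. It was 1 of 8 for aggregates with C13 (Hsp90ab1), against 12.8%, and 1 of 8 for C13 with aggregates (Hsp90ab1), against 13.4%. For C13 with sham it was 0 of 8, against 10.1%. In nascent RNA it was 1 of 8 for aggregates with C13 (Dnaja1), against 13.1%, and 1 of 8 for C13 with sham (Hsf1), against 14.3%. It was 0 of 8 for aggregates with DMSO, against 10.3%, and 0 of 8 for C13 with aggregates, against 10.4%. The median log2 difference of the 8 in total RNA was 0.21 for aggregates with C13, against -0.0080 for all genes, and -0.03 for aggregates with DMSO, against -0.017. It was -0.07 for C13 with aggregates, against -0.0045, and -0.23 for C13 with sham, against -0.0075.

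**Figure D3:**
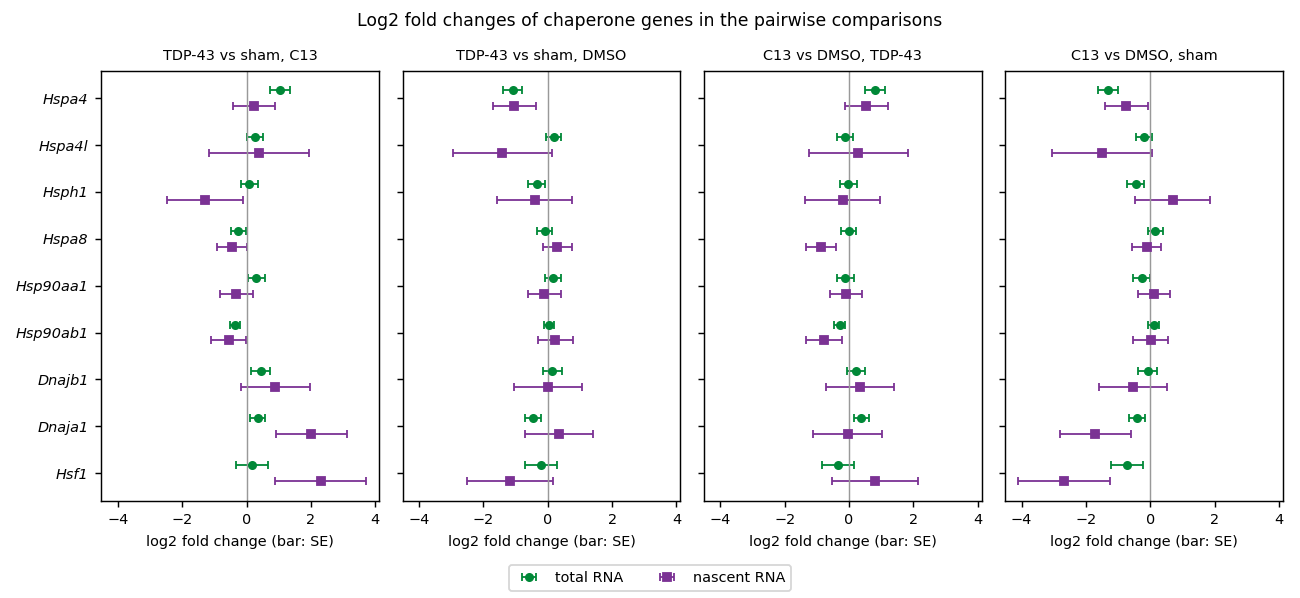
Log2 fold changes of 9 members in the 4 pairwise comparisons (horizontal axis, log2 scale, bars of 1 SE from edgeR), with total RNA as circles and nascent RNA as squares. In total RNA Hspa4 lies at 1.04, -1.10, 0.81 and -1.32 from the left panel to the right, and the SE of nascent values is wider, up to 1.56.

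Spread between libraries separated the members. In total RNA the SD of log2 CPM over the 12 libraries was 0.66 for Hspa4, a value given as a description only, and 0.71 for Hsf1, above 95.3% of 3278 tested genes of similar level. It was 0.18 for Hsp90ab1, above 12.4% of 467, and 0.21 for Hspa4l. The other members lay between 47.4% and 69.5%. In nascent RNA the SD of Hspa4 was 0.61, above only 10.1% of 1715 tested genes of similar level. Dnajb1 at 1.92 was above 88.4% and Dnaja1 at 1.97 above 88.0% of tested genes of similar level.

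Genes most like Hspa4 in total RNA were sought by the root mean square difference of centred log2 CPM over the 12 libraries, among 7285 genes with a mean of at least 10 CPM. The closest was Stx16, a syntaxin of the Golgi, at 0.24, against 0.63 for the deviations of Hspa4 themselves. The next were Ung at 0.27, Socs7 at 0.28, the noncoding RNA gene Snhg1 at 0.29 and Tmed9 at 0.32. Stx16 averaged 161 CPM in C13 with TDP-43 and 70.6 CPM in C13 with sham. It averaged 104 CPM in DMSO with TDP-43 and 164 CPM in DMSO with sham. That it shared the crossed order of Hspa4 follows from the search, which picked genes by their likeness to Hspa4. No member was among the closest: Dnaja1 was the nearest at 0.45, in place 141, and Hsph1 was at 0.50, in place 288. For Hsph1 the closest genes were Mtmr6 at 0.16, Cwc27 at 0.16, Tpx2 at 0.18, Nars at 0.18 and Nsmce4a at 0.19, against 0.34 for Hsph1 itself.

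The share of a gene's reads that were nascent differed among the members. Pooled over the 12 libraries it was 6.62% for Dnajb1, above 91.9% of 9933 genes with a mean of at least 50 total reads. It was 4.71% for Hsp90aa1, above 82.7% of these genes. The pooled share of Hsf1 was 4.21%, but 39.9% of its 752 nascent reads came from replicate 2 of DMSO with sham and its median library had 2.14%. Set against the share of the whole library, the median over libraries was 2.36 for Dnajb1, 1.41 for Hsp90aa1 and 0.68 for Hsf1. The HSP110 genes lay at 2.56% for Hspa4, 2.64% for Hsph1 and 1.61% for Hspa4l, against a median of 2.63% over all genes. For Hspa4l, 42.5% of 193 nascent reads came from replicate 2 of DMSO with sham, and its median library had 0.73%. Set against the share of the whole library, the medians were 0.72 for Hspa4, 0.75 for Hsph1 and 0.29 for Hspa4l. Hsp90ab1 had 1.87%, so that the constitutive HSP90 gene stood below the median and the inducible one above it. Reads were not corrected for how many bases a transcript end offers for labelling, and the share of the whole library ran from 1.88% to 7.11%. Replicate 2 of DMSO with sham, the library with 7.11%, had a share of 23.2% for Dnajb1 and 7.02% for Hspa4. For Hspa4 the share was 1.94 ± 0.149% in C13 with TDP-43, 2.55 ± 1.23% in C13 with sham, 2.22 ± 0.851% in DMSO with TDP-43 and 3.86 ± 2.74% in DMSO with sham (SD, n = 3 each), with overlap between the groups.

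**Figure D4:**
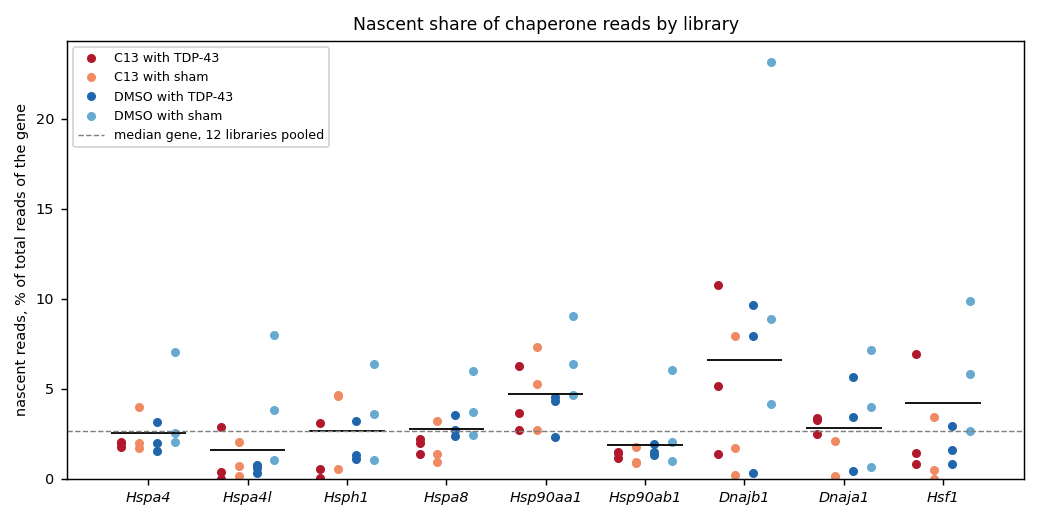
Nascent reads as a percentage of a gene's total reads (linear axis from 0) by library for 9 members, with a line at the value pooled over 12 libraries and a dashed line at the median gene, 2.63%. Dnajb1 (6.62%) and Hsp90aa1 (4.71%) lie above that line and Hspa4l (1.61%) and Hsp90ab1 (1.87%) below it, and replicate 2 of DMSO with sham is highest for all 9.

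The wider chaperone network was read from 8 lists of 83 genes, of which 70 were tested in total RNA and 62 in nascent RNA. EdgeR called 0 of them in each comparison of either table. Of the 70 genes tested in total RNA, 10 (14.3%) reached an unadjusted p under 0.05 for aggregates with C13, against 8.84% of all genes, and 2 (2.86%) did for aggregates with DMSO, against 4.36%. It was reached by 8 (11.4%) for C13 with aggregates, against 5.98%, and by 5 (7.14%) for C13 with sham, against 6.10%. For the interaction it was 8 (11.4%), against 7.96%, for averaged aggregates 1 (1.43%), against 4.73%, and for averaged C13 2 (2.86%), against 4.08%. In nascent RNA 4 of the 62 (6.45%) reached it for aggregates with C13, against 8.45% of all genes. None did for aggregates with DMSO, against 3.19%, or for C13 with aggregates, against 4.59%. For C13 with sham it was 5 (8.06%), against 6.89%, and for the interaction 4 (6.45%), against 7.59%. Averaged aggregates gave 1 (1.61%), against 5.59%, and averaged C13 gave 6 (9.68%), against 5.96%. DESeq2 called Dnajc7 and Pih1d1 for aggregates with C13 and for the interaction, and none elsewhere. Of all 11827 genes it called 98 and 108 in these comparisons. EdgeR without the filter on low counts called Dnajc7 in the same 2 comparisons, where it called 124 of 18001 genes in each. It also called Fkbp5 for C13 with sham in nascent RNA, where it called 29 of 11805 genes. The following counts are signs of averaged log2 differences in total RNA, first for aggregates against sham and then for C13 against DMSO, and none of the genes named passed the test.

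Of 7 other HSP70 and HSP110 family genes tested, 3 were higher with aggregates and 4 with C13. The mitochondrial HSP70 gene Hspa9 gave 0.20 for aggregates and -0.21 for C13, Hspa14 gave -0.25 for aggregates, and Hspa5, the HSP70 of the endoplasmic reticulum, gave 0.12 for C13. Of 12 other J-domain genes, 10 were higher with aggregates and 4 with C13. For aggregates these were 10 of 12 with C13 (median 0.20) but 5 of 12 with DMSO (median -0.10), and for C13 6 with aggregates and 3 with sham. Dnaja2 gave 0.18 and Dnajc8 gave 0.16 for aggregates, while Dnajc2 gave 0.36 and Dnajc8 gave -0.23 for C13. Of 10 nucleotide exchange factors and adaptors of HSP70, 4 were higher with aggregates and 6 with C13. Stub1, the ubiquitin ligase CHIP, gave -0.28 and Bag6 gave -0.28 for aggregates, and Bag2 gave -0.56 and Bag3 gave 0.23 for C13.

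Of 18 HSP90 co-chaperones, 10 were higher with aggregates and 8 with C13. Tomm34 gave 0.42 and Nudc gave -0.40 for aggregates, and Cdc37l1 gave -0.82 and the p23 gene Ptges3 gave -0.30 for C13, with adjusted p-values of 0.948 for the first pair and 0.999 for the second (edgeR). Of 13 subunits of the chaperonin TRiC and of prefoldin, which fold actin and tubulin, 4 were higher with aggregates and 8 with C13. Cct4 gave -0.24 and Cct7 gave -0.23 for aggregates, and Cct7 gave 0.14 and Cct8 gave 0.15 for C13. Of 4 mitochondrial and ER chaperones of other families, 3 were higher with aggregates and 3 with C13. Hsp90b1 gave 0.33 for aggregates and -0.23 for C13, the HSP60 gene Hspd1 gave 0.14 for aggregates, and Trap1 gave 0.33 for C13.

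Of 8 small heat shock protein genes only 2 were tested, and both were higher in each averaged comparison. Hspb7 gave 0.04 for aggregates and 0.05 for C13. Of 4 other heat shock factors and HSF1-binding proteins, 0 were higher with aggregates and 3 with C13, and for aggregates 3 were higher with C13 and 1 with DMSO. Hsf2, a factor related to HSF1, gave -0.14 for aggregates and 0.67 for C13, and Hsbp1, which binds HSF1, gave -0.15 and -0.09.

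A crossed order of group means like that of Hspa4 was also seen in total RNA in Dnajc7, Bag3 and Hspd1, and its reverse in Pih1d1. These genes of the lists were chosen after their values were seen. For the interaction in total RNA, 11.4% of the 70 tested list genes had an unadjusted p under 0.05 (edgeR), against 7.96% of all genes. Dnajc7, a J-domain gene whose protein binds HSP70 and HSP90, averaged 118 ± 11.7 CPM in C13 with TDP-43 and 56.8 ± 21.7 CPM in C13 with sham in total RNA. It averaged 63.7 ± 8.93 CPM in DMSO with TDP-43 and 101 ± 19.3 CPM in DMSO with sham (SD, n = 3 each). Its interaction of C13 and aggregates was 1.72 ± 0.37 (SE, log2), with an adjusted p of 0.183 by edgeR, 0.00291 by edgeR without the filter and 0.0041 by DESeq2. Bag3, an HSP70 adaptor induced by HSF1, averaged 64.4 ± 9.70 CPM in C13 with TDP-43 and 37.6 ± 9.02 CPM in C13 with sham, and 33.5 ± 1.89 CPM in DMSO with TDP-43 and 52.9 ± 20.8 CPM in DMSO with sham. Its interaction was 1.44 ± 0.42, with an adjusted p of 0.378 (edgeR). The interaction of Hspd1 was 0.76 ± 0.26, with an adjusted p of 0.478 (edgeR). For Bag3 and for Hspd1 the DMSO groups overlapped, and so did C13 with sham and DMSO with sham. Pih1d1, a subunit of an HSP90 co-chaperone complex, averaged 7.95 ± 2.04 CPM in C13 with TDP-43 and 22.2 ± 6.76 CPM in C13 with sham, and 14.5 ± 4.58 CPM in DMSO with TDP-43 and 8.82 ± 1.30 CPM in DMSO with sham. Its interaction was -2.20 ± 0.54, with an adjusted p of 0.244 by edgeR and 0.0214 by DESeq2. Its DMSO groups overlapped, and so did C13 with TDP-43 and DMSO with TDP-43. Without both libraries that stood apart the interaction was 1.40 for Dnajc7, 1.60 for Bag3 and -2.38 for Pih1d1, and without replicate 2 of C13 with sham 2.06, 1.41 and -2.42. The nascent interaction was 1.38 ± 1.37 for Dnajc7, 3.12 ± 1.39 for Bag3 and 0.55 ± 0.83 for Hspd1 (SE, log2). Their adjusted p-values were 0.860, 0.630 and 0.939 (edgeR). Nascent means of Hspd1 were not crossed, with 337 CPM in C13 with TDP-43 against 404 CPM in DMSO with TDP-43. By group mean in total RNA, Dnajc7, Bag3 and Hspd1 were high, and Pih1d1 low, in the groups with the lower shares of mitochondrial ribosomal RNA given with Hspa4. The part of these shares was not tested.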

How the data were processed

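Nascent and total RNA were measured by SLAM-seq with 3′-end libraries, per the labels' protocols. As deposited, the values were raw counts, made by the authors for 12 libraries and 30994 Ensembl genes in a nascent and a total table. The submitters' processing notes name GRCm38. Neither aligner, counter nor annotation, nor what makes a read nascent, is given in the sources used here. Symbols came from GENCODE M21, which matched 30922 identifiers.

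From these counts, genes were kept by filterByExpr, scaled by TMM within each table and tested with edgeR 4.0.16 in R 4.3.3 (quasi-likelihood, 1 fit of 12 libraries with 4 group means). P-values were adjusted over all genes tested by the Benjamini-Hochberg method at 0.05. SE is the absolute log2 fold change divided by the square root of F. Within-table scaling removes a global change in labelled RNA. Where the mean exceeded 50 total reads, 1917 of 9932 genes had counts sharing a factor of 2 or more. The fitting code was run on simulated counts of independent libraries. These held no libraries that stood apart and no shared count factors, so the run does not cover those features.

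Members and lists were chosen with earlier results of these data known. Named were the 10 members, Hspa1a, per list up to 2 genes of smallest p for each averaged comparison in total RNA (mean of at least 10 CPM), and the 5 genes most like Hspa4 and Hsph1. Alternatives were DESeq2 1.42.0, its size factors, no filter, the replicate number as a block, each library left out in turn, fits of the compared groups alone, and total library sizes for nascent counts. Leaving out the 2 libraries that stood apart, and dividing counts by their common factor, were added after seeing the data.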

Additional observations from a re-analysis of the deposited data

Results flagged for a closer look

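In total RNA, Hspa4 moved in opposite directions with C13 in the TDP-43 and sham arms: every library of C13 with TDP-43 lay above every library of DMSO with TDP-43, and every library of C13 with sham lay below every library of DMSO with sham. The difference between the 2 log2 differences was 2.13. This difference was not tested, since Hspa4 was chosen for varying between these groups.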

How the results depend on the processing

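With 3 libraries a group, an edgeR count of 0 does not show that a gene did not differ, and nascent reads were 1.88% to 7.11% of total reads. Under every alternative run, the 8 tested members other than Hspa4 had 0 calls in each comparison. Over all genes, in the order aggregates with C13, aggregates with DMSO, C13 with aggregates, C13 with sham, averaged aggregates, averaged C13 and interaction, DESeq2 called 98, 8, 30, 41, 33, 16 and 108 genes in total RNA and 72, 7, 11, 29, 9, 10 and 48 in nascent RNA. EdgeR without a filter called 124, 10, 33, 59, 33, 18 and 124 in total RNA and 30, 6, 10, 29, 18, 11 and 38 in nascent RNA. With the filter it called 0 throughout, except 1 in nascent RNA for averaged aggregates. Without the 2 libraries that stood apart it called 1 for aggregates with C13 and 1 for averaged aggregates in total RNA, with only the 2 groups compared 1 for aggregates with C13 in total RNA, and with counts divided by their common factor 2 for the interaction in total RNA. With 1 library left out, the counts in total RNA ran between 0 and 2 for aggregates with C13, C13 with sham and averaged C13, between 0 and 1 for averaged aggregates and between 0 and 3 for the interaction, and in nascent RNA between 0 and 1 for aggregates with C13 and for averaged aggregates. The causes were not tested.

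Replicate numbers were not treated as pairs in the main fits. In total RNA, deviations of same-numbered libraries correlated at -0.0687 to 0.233 (median 0.018), over 0.1 in 5 of 18 pairs. Those of libraries with other numbers correlated at -0.293 to 0.278 (median -0.0083), over 0.1 in 2 of 36. In nascent RNA the same-numbered ran from -0.0284 to 0.0595, over 0.1 in 0 of 18, and the others from -0.0517 to 0.0484, over 0.1 in 0 of 36. Whether the numbers mark shared cultures or days could not be told. With a replicate block edgeR called 2 genes for the interaction in total RNA and 0 for averaged aggregates in nascent RNA, and 0 elsewhere.

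Some log2 values turned their sign under an alternative. Hsf1 for C13 with aggregates in total RNA, -0.34, was 0.27 without replicate 2 of DMSO with TDP-43, within -0.72 to 0.27 when 1 library was left out. Hsf2 for averaged aggregates was 0.27 without the 2 libraries that stood apart and -0.29 to 0.095 with 1 library left out. Hspb7 for averaged aggregates was -0.068 without the 2 libraries and -0.080 to 0.28 with 1 left out, and for averaged C13 -0.13 to 0.28. For averaged C13, Trap1 ran between -0.0037 and 0.48, lowest without replicate 2 of C13 with sham, and Hsbp1 between -0.18 and 0.042, highest without replicate 3 of C13 with sham. With total library sizes, nascent Hspa4 gave -1.64 for aggregates with DMSO, -1.69 for C13 with sham and 2.32 for the crossed difference. Summing Hspa1a and Hspa1b gave no value, since both had 0 reads.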
